A study of Homo sapiens with 6 samples.

Results

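The genes described here are 10 brakes on mTOR complex 1 (mTORC1): the sestrins SESN1, SESN2 and SESN3, DDIT4 (the protein REDD1), DEPTOR, the TSC subunits TSC1 and TSC2, and the GATOR1 subunits NPRL2, NPRL3 and DEPDC5. They were taken by symbol from the 20263 genes of the count table. All 10 were present and all 10 were among the 12690 genes with enough counts to test.

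mTORC1 is a protein kinase complex that drives protein synthesis and cell growth when nutrients and growth factors are plentiful. GATOR1 turns off the Rag GTPases that bring mTORC1 to the lysosome, and the sestrins free GATOR1 from its inhibitor GATOR2 when amino acids are short. The TSC complex turns off RHEB, the small GTPase that switches the kinase on. REDD1 acts through TSC, and DEPTOR binds the mTOR kinase itself. In leukemia with mutant FLT3 the receptor signals through PI3K and AKT, and AKT is known to inhibit TSC.

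RNA was measured in MV4-11, an acute myeloid leukemia cell line of human origin with an internal tandem duplication of FLT3 and a KMT2A-AFF1 fusion, for which the labels give the genotype as WT. All cells were exposed for 24 h, to venetoclax at 100 nM (an inhibitor of the survival protein BCL2), to cyclosporine A (CSA) at 2.5 µM (a calcineurin inhibitor), or to both. The labels do not give the doses in the combination separately. Each group had 2 libraries from a single cell line, no untreated cells entered the comparisons, and nothing in the labels says that replicates were separate cultures, so p-values measure only the spread between these libraries. Total counts were 26567900 to 30738957 per library. Myeloid markers listed for the line were at 5 CPM (counts scaled to library depth) or more in every library for 9 of 10 genes, FLT3 at 838 to 926 CPM, with CD14 at 0.41 CPM or less. Of 13 markers of other cell types, 7 had no count in any library, among them the T cell markers CD3D, CD3E and CD2 and the epithelial markers EPCAM and CDH1. Mitochondrially encoded genes took 41.5% of the counts of venetoclax replicate 2 and 7.41% to 15.2% of the other 5 libraries. That library is in every venetoclax value below, so values without it are given where the direction turns or the size moves by over 1.5 times, and the part of its mitochondrial share in any difference was not tested.

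Levels below are CPM after TMM scaling (trimmed mean of M-values), which brings libraries of different makeup to a common scale. Between genes they are compared only per kilobase of the longest coding transcript. On that per-length scale, averaged over the 6 libraries, NPRL3 (15.1 CPM per kb) and NPRL2 (14.8) were highest, and their ranges overlapped, at 13.9 to 16.8 and 9.70 to 17.6. DDIT4 followed at 11.1 but spanned 1.52 to 19.5, which overlapped the range of every other gene. TSC2 (10.6), DEPDC5 (8.13) and TSC1 (6.78) came next, and their ranges of 9.12 to 11.8, 7.40 to 8.60 and 6.07 to 7.25 did not overlap. SESN2 (4.84) spanned 1.52 to 7.43, and DEPTOR (2.52), SESN1 (1.63) and SESN3 (1.33) were lowest, with SESN1 inside the span of SESN3 (0.55 to 3.02). The order depends on the length used: with all annotated exons merged, DDIT4 was highest and SESN1 lowest.

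**Figure D1:**
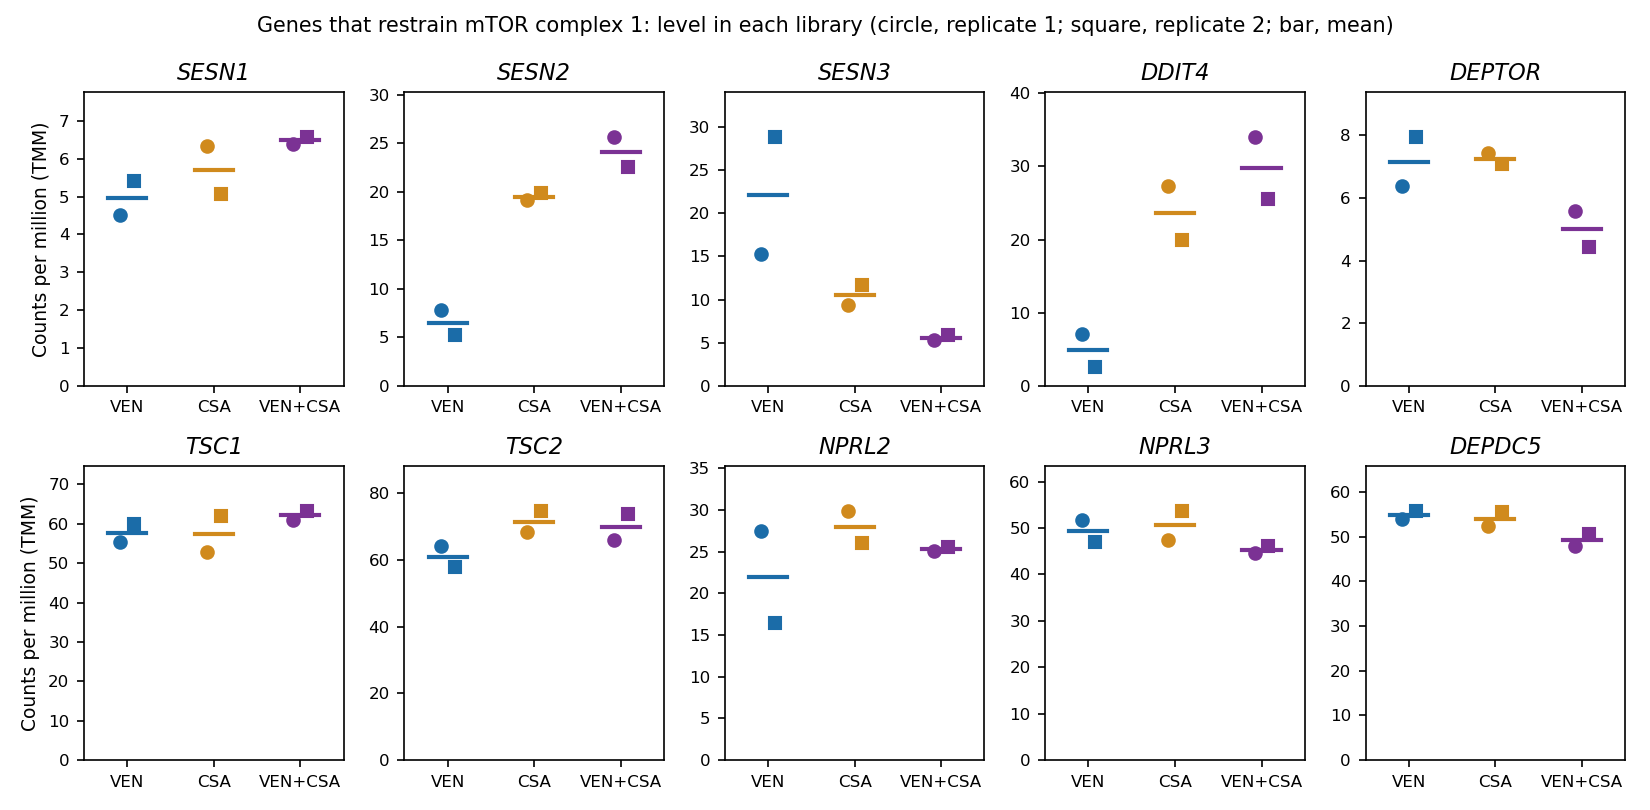
Level of each of the 10 genes in each library, in CPM scaled by TMM, with a linear axis from 0 for each gene. Circles are replicate 1, squares replicate 2 and bars the mean of 2 libraries; SESN2 and DDIT4 were lowest and SESN3 highest with venetoclax, whereas TSC1, NPRL3 and DEPDC5 stayed within a 1.20-fold span.

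The genes differed in how far they varied over the libraries. The highest library stood 12.8-fold above the lowest for DDIT4, 5.46-fold for SESN3 and 4.89-fold for SESN2. The span was 1.81-fold for NPRL2, 1.79-fold for DEPTOR and 1.46-fold for SESN1. It was 1.29-fold for TSC2, 1.20-fold for NPRL3, 1.19-fold for TSC1 and 1.16-fold for DEPDC5.

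SESN2, a sestrin that senses leucine and whose gene is a known target of the stress factor ATF4, lies at chr1:28259527-28282491 (plus strand, GRCh38). These are shares of each library's RNA, in which fewer expressing cells and less RNA per cell cannot be told apart. SESN2 was at 7.79 and 5.25 CPM under venetoclax, 19.1 and 19.9 under CSA and 25.7 and 22.6 under both drugs. Both venetoclax libraries were below all others, and both combination libraries were above both CSA libraries by a small margin. The combination stood 3.68-fold above venetoclax (log2 difference 1.88 ± 0.25 SE, 95% interval 1.27 to 2.49). In edgeR's quasi-likelihood test this gave an unadjusted p of 0.000337 and an adjusted p of 0.111, above the threshold of 0.05. DESeq2 on the same counts gave an adjusted p of 4.55e-08, and the 18 alternative fits ranged from 1.1e-08 to 0.777. Among 9875 genes with a mean of at least 5 CPM, SESN2 had the 18th highest difference. Without venetoclax replicate 2 the log2 difference was 1.63, with an adjusted p of 0.0501 in edgeR.

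Between the single agents SESN2 was lower with venetoclax than with CSA (log2 difference −1.57 ± 0.25), the 15th lowest of the same 9875 genes. The adjusted p was 0.575 in edgeR and 5.39e-05 in DESeq2, with a range of 3.08e-05 to 0.984 over the alternatives. The combination differed from CSA by only 0.31 ± 0.24, with an interval of −0.28 to 0.89 that leaves room for a difference in either direction.

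SESN3, a sestrin whose gene is a known target of FOXO factors, lies at chr11:95165513-95232541 (minus strand) and had the reverse order. It was at 15.3 and 28.9 CPM under venetoclax, 9.39 and 11.7 under CSA and 5.28 and 5.92 under both drugs. The 3 groups did not overlap, and the venetoclax replicates were 1.89-fold apart. With the combination SESN3 was 3.93-fold below venetoclax (log2 −1.97 ± 0.35, interval −2.84 to −1.11), the 24th lowest of 9875 genes. The adjusted p was 0.188 in edgeR and 4.52e-05 in DESeq2, and no alternative gave less than the latter or more than 0.932. Without venetoclax replicate 2 the difference was −1.44.

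SESN3 was the one brake with an unadjusted p under 0.05 for the combination against CSA. It was lower by 1.88-fold (log2 −0.91 ± 0.34, interval −1.76 to −0.06, unadjusted p of 0.0392 and adjusted p of 1.00 in edgeR). DESeq2 gave an adjusted p of 0.858 with all 6 libraries and 0.0336 when venetoclax replicate 2, which is in neither group, was left out of the shared estimate of spread. Venetoclax stood above CSA by 1.06 ± 0.34, and by 0.53 without venetoclax replicate 2.

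SESN1, the sestrin best known as a p53 target, was at 4.51 and 5.41 CPM under venetoclax, 6.35 and 5.07 under CSA and 6.39 and 6.58 under both drugs. The combination libraries were narrowly above the others, and the intervals of both differences include 0 (0.39 ± 0.23 against venetoclax, adjusted p of 0.561; 0.18 ± 0.22 against CSA). These values rest on 102 to 213 counts per library.

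SESN2 and SESN3 differed between groups in opposite directions, so the makeup of the sestrin messages is given beside their sum. Per transcript length, SESN2 made up 43.9% and 25.0% of the 3 sestrins under venetoclax, 66.5% and 68.3% under CSA and 75.8% and 72.4% under both drugs. SESN3 made up 31.1% and 49.6%, then 11.8% and 14.5%, then 5.64% and 6.86%. SESN1 stayed between 17.2% and 25.4% in all 6 libraries. The summed level was 5.14 and 6.08 CPM per kb under venetoclax, 8.32 and 8.42 under CSA and 9.80 and 9.03 under both drugs. Of raw counts, SESN2 took 28.3% in venetoclax replicate 1 (95% Wilson interval 25.3% to 31.4%) and 68.7% in combination replicate 1 (66.1% to 71.2%), intervals that cover counting error only.

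**Figure D2:**
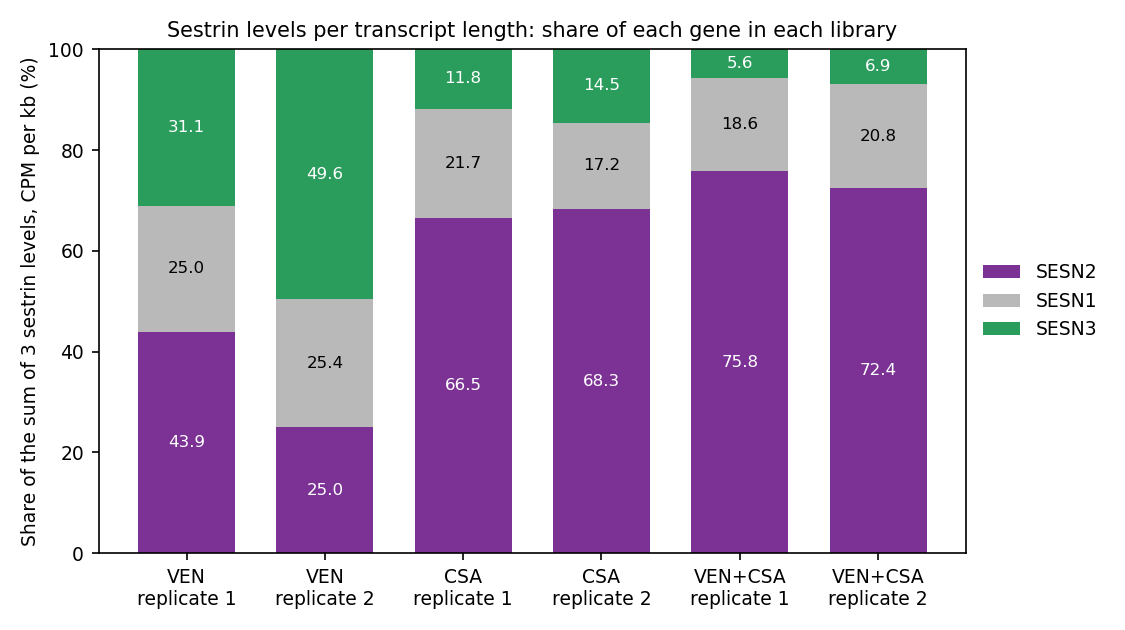
Share of SESN2, SESN1 and SESN3 in the summed sestrin level of each library, in percent of CPM per kb. SESN3 was at 31.1% and 49.6% in the venetoclax libraries and at 5.64% and 6.86% in the combination libraries.

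DDIT4 encodes REDD1, a short-lived stress protein whose gene responds to hypoxia, glucocorticoids, DNA damage and ATF4, and lies at chr10:72273920-72276036 (plus strand). It was at 7.05 and 2.65 CPM under venetoclax, 27.4 and 19.96 under CSA and 34.1 and 25.6 under both drugs. Venetoclax was far below the other 4 libraries, and the CSA and combination libraries overlapped. The lowest value rests on 50 counts and the highest on 1135. Against venetoclax the combination was 6.06-fold higher (log2 2.60 ± 0.49, interval 1.40 to 3.80), the 5th highest of 9875 genes. The adjusted p was 0.198 in edgeR and 6.78e-06 in DESeq2, and ran from 8.4e-08 to 0.906 over the alternatives. DDIT4 shares 847 exon bases with DDIT4-AS1 on the opposite strand, which was not analysed here.

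The size of the DDIT4 difference depended on which venetoclax library was kept, at 2.08 without replicate 2 and 3.49 without replicate 1. Venetoclax against CSA was −2.27 ± 0.48, the 3rd lowest of 9875 genes, with an adjusted p of 0.633 in edgeR and 0.000612 in DESeq2 (4.68e-05 to 0.984 over the alternatives). Combination against CSA was 0.33 ± 0.45, with an interval of −0.78 to 1.45.

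The promoters of the 3 variable genes, and of TSC2 as a steady one, are shown for the letters of factors known to act on these genes. Windows run from 250 bases before to 50 after the annotated start (RefSeq, GRCh38.p14), and 9 of the 10 genes, all but DEPTOR, had an entry, with 14 windows; for a gene with several, the first is printed. Capitals mark matches on either strand to the letters of known elements. These were TGATGNAA for ATF4 paired with C/EBP, TGACGTCA for the cyclic AMP response element and TGTTTAC for FOXO factors. The E-box was searched as CACGTG, and the core of the hypoxia response element, which lies within the E-box, as ACGTG. The CCAAT box was searched by the letters of its name. The last pair was added to the search after the sequences had been seen. The SESN2 window is chr1:28259268-28259567 (plus strand), that of DDIT4 chr10:72273674-72273973 (plus), that of SESN3 chr11:95232426-95232725 (minus) and that of TSC2 chr16:2047735-2048034 (plus).
SESN2: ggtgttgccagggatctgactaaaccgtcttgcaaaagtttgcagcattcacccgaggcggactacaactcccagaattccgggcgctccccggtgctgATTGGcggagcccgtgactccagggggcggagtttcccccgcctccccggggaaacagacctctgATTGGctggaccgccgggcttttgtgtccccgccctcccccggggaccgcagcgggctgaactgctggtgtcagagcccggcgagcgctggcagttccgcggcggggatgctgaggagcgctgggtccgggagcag
DDIT4: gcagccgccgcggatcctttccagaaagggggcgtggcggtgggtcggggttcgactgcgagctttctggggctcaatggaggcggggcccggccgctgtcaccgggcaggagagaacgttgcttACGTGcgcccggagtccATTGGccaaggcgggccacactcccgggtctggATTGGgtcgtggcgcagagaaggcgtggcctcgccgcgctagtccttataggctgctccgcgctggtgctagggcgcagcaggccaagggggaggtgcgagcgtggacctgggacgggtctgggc
SESN3: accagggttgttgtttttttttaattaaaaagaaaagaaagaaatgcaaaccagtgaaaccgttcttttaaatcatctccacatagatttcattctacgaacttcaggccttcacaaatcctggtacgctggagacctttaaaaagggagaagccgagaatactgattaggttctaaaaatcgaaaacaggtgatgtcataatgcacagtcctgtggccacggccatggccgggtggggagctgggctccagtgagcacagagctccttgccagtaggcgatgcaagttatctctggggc
TSC2: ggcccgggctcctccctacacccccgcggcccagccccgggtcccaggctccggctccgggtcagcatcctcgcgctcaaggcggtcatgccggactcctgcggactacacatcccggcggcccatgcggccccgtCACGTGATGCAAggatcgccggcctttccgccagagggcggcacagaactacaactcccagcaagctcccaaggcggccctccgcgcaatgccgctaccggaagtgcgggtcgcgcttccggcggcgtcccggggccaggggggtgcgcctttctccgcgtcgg

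SESN2 and DDIT4 each held 2 CCAAT matches in reverse orientation, 151 and 86 bases before the start in SESN2 and 108 and 75 in DDIT4. CCAAT occurs in 34.6% of 35116 windows, so sharing it is common. DDIT4 also held ACGTG 125 bases upstream, a core found in 21.4% of windows. The ATF4 composite letters, found in 3.62% of windows, were in none of the 3 variable genes' windows and in TSC2 only. There they lay 110 bases upstream in the printed window, overlapping an E-box at 114 (7.26% of windows). The second window of TSC2 held none of the searched letters. The FOXO letters (3.42%) were in none of the members' windows, SESN3 included, and nor were those of the cyclic AMP response element (1.85%). Matches are letters and not measured binding, and a missing match says only that these letters are not in this window.

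DEPTOR, the inhibitor that binds the mTOR kinase directly, was at 6.37 and 7.96 CPM under venetoclax, 7.44 and 7.08 under CSA and 5.58 and 4.43 under both drugs. Both combination libraries were below all 4 single-agent libraries. The difference was −0.51 ± 0.23 against venetoclax (unadjusted p of 0.0698, edgeR) and −0.53 ± 0.23 against CSA (unadjusted p of 0.0603). Neither passed the threshold, with adjusted p-values of 0.503 and 1.00, and without venetoclax replicate 2 the first was −0.34. Scaling by library size alone gave −0.19 for the first, when the median of all genes was at 0.26. On that scale the combination libraries (6.23 and 4.51 CPM) overlapped the venetoclax libraries (7.08 and 5.22). The 2 comparisons share the combination libraries, and DEPTOR had 122 to 236 counts per library.

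TSC1 and TSC2 form the complex that inactivates RHEB, TSC2 carrying the GTPase-activating domain and TSC1 stabilising it. TSC1 was at 55.3 and 59.99 CPM under venetoclax, 52.9 and 62.1 under CSA and 61.1 and 63.2 under both drugs. TSC2 was at 64.0 and 57.9, then 68.3 and 74.5, then 65.9 and 73.5. The intervals of all differences of both genes include 0. For the combination against venetoclax the differences were 0.11 ± 0.16 for TSC1 and 0.19 ± 0.16 for TSC2, with intervals of −0.29 to 0.51 and −0.20 to 0.58. Without venetoclax replicate 2 they were 0.17 and 0.13. For venetoclax against CSA they were 0.00 ± 0.16 and −0.23 ± 0.16, and −0.062 for TSC1 without that library. With libraries scaled by size alone the difference of TSC1 between the single agents was −0.32, when the median of all genes moved to −0.31. TSC2 shares 778 exon bases on the opposite strand with PKD1, which was at 81.8 and 44.6 CPM under venetoclax, 141 and 115 under CSA and 173 and 134 under both drugs. The sources used here do not say if strand was used in counting, so reads from such overlaps cannot be assigned.

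GATOR1, whose catalytic subunit is NPRL2 and whose largest is DEPDC5, was as steady as TSC apart from 1 library. NPRL2 was at 27.5 and 16.5 CPM under venetoclax, 29.9 and 26.1 under CSA and 25.1 and 25.6 under both drugs, so that only venetoclax replicate 2 stood apart. Its difference from venetoclax with the combination was 0.20 ± 0.27 with 6 libraries and −0.11 without that library, a change of direction. Of neighbours that share exon bases with GATOR1 genes on the opposite strand, 2 were lowest in the same library. These were CYB561D2 (beside NPRL2) at 5.62 CPM against 13.4 to 19.1 and MPG (beside NPRL3) at 35.4 against 52.4 to 69.2. The opposite-strand neighbours of TSC2 were lowest there too, PKD1 at 44.6 CPM against 81.8 to 173 and NTHL1 at 8.49 against 10.9 to 18.2.

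NPRL3, which pairs with NPRL2 in the complex, was at 51.7 and 46.9 CPM under venetoclax, 47.5 and 53.7 under CSA and 44.7 and 46.1 under both drugs. DEPDC5 was at 53.9 and 55.7, then 52.5 and 55.5, then 47.9 and 50.5. For both genes the combination libraries were the lowest, by amounts whose intervals include 0. NPRL3 differed by −0.12 ± 0.16 from venetoclax and −0.16 ± 0.16 from CSA, and DEPDC5 by −0.15 ± 0.15 and −0.13 ± 0.15. Without venetoclax replicate 2 the difference of NPRL3 from venetoclax was −0.18. Scaling by library size alone turned the difference from venetoclax to 0.13 for NPRL3 and 0.12 for DEPDC5, when the median of all genes was at 0.26. DEPDC5 shares 1809 exon bases on the same strand with Z82190.2, which is not among the counted genes. Reads from that overlap cannot be told apart by strand.

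**Figure D3:**
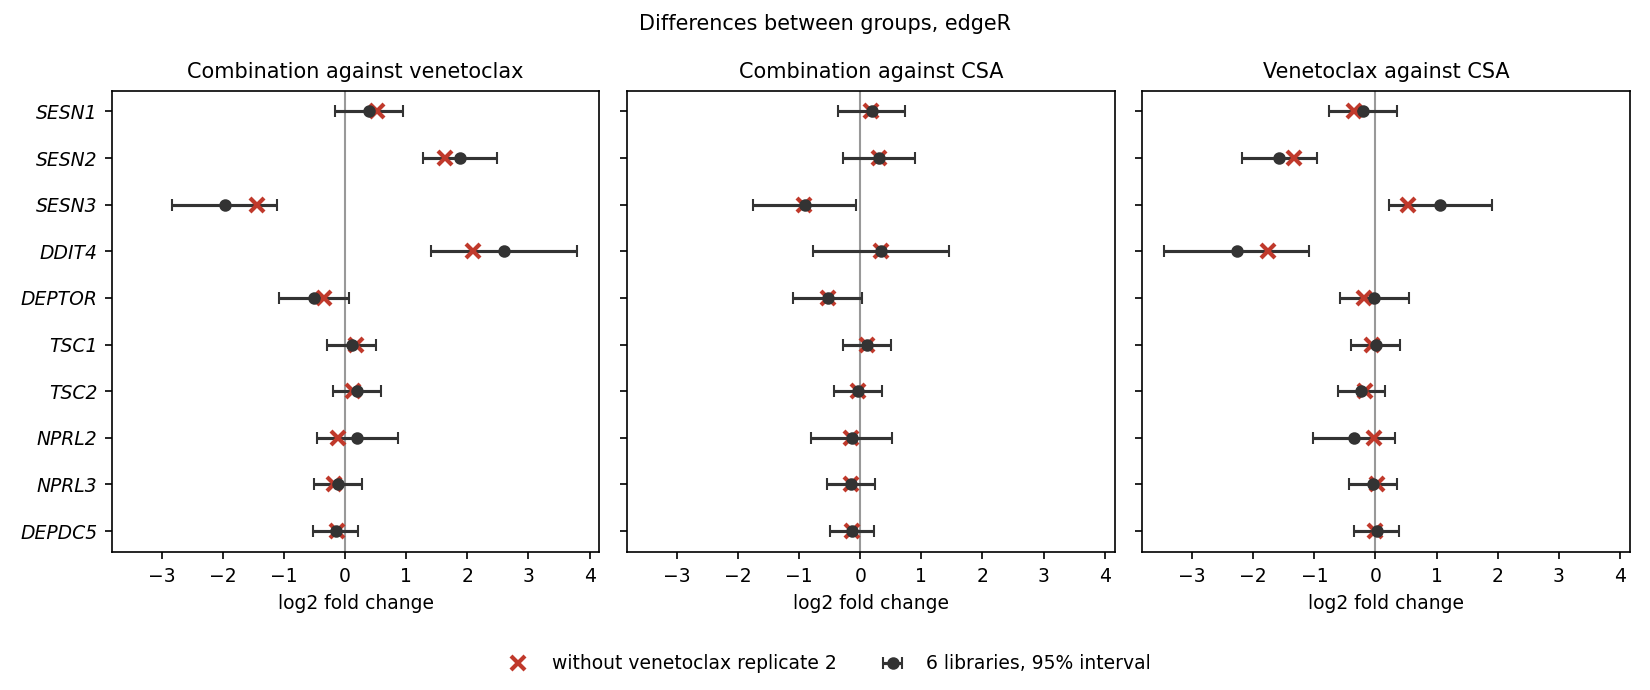
Log2 fold change of each gene in the 3 comparisons, from edgeR with all 6 libraries (dots, with 95% intervals) and without venetoclax replicate 2 (crosses). The intervals of SESN2, SESN3 and DDIT4 exclude 0 in both comparisons with venetoclax, SESN3 also does against CSA, and the crosses of those 3 genes lie nearer to 0 in the comparisons with venetoclax.

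Read over all genes, edgeR at an adjusted p under 0.05 called no gene in any of the 3 comparisons, which is 0% of 12690, and so none of the 10 brakes. For the combination against venetoclax, 3 of 10 had an unadjusted p under 0.05 (SESN2, SESN3, DDIT4), against 10.8% of all genes, and DESeq2 called those 3, against 2.45%. For the combination against CSA the numbers were 1 of 10 against 3.64%, and 0 by DESeq2 against 0.473%. For venetoclax against CSA they were 3 of 10 against 4.8%, and 2 by DESeq2 (SESN2 and DDIT4, both lower) against 0.496%.

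Leaving out venetoclax replicate 2, the 3 comparisons, in the order above, were refitted on 5 libraries, with 1 library for venetoclax. For the combination against CSA, with 2 libraries in each group, edgeR called 24 of 12940 tested genes and none of the 10 brakes. At so low a rate, the lack of a call among 10 genes says nothing about the brakes. On the same 5 libraries DESeq2 called 3, 1 (SESN3) and 2 of the 10 genes in the same order, where 3.79%, 1.98% and 0.827% of all genes were called. Without venetoclax replicate 1 the high-mitochondrial library stands alone for its group. In that fit the combination differed from venetoclax by 2.20 for SESN2, −2.36 for SESN3, 3.49 for DDIT4 and 0.62 for NPRL2. Venetoclax differed from CSA by −1.89, 1.45, −3.16 and −0.76 in the same order of genes. Groups did not overlap for 9 of 10 brakes between the combination and venetoclax (5 higher, 4 lower, NPRL2 overlapping), against 38.1% of all genes. They did not overlap for 7 of 10 against CSA (SESN1 and SESN2 higher; SESN3, DEPTOR and the 3 GATOR1 genes lower), against 47.2%, and for 4 of 10 between the single agents, against 40.7%. With 2 libraries a group such separation is common, and for 6 of the 9 genes separated from venetoclax the unadjusted p was above 0.05.

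The median difference of the 10 brakes was 0.15, −0.08 and −0.12 for the combination against venetoclax, the combination against CSA and venetoclax against CSA, where all tested genes had −0.01, −0.00 and −0.00. They were 6 higher and 4 lower, then 4 and 6, then 3 and 7, with no single direction. Without venetoclax replicate 2 the first median was 0.0071, with 5 genes higher and 5 lower. The comparisons share libraries in pairs and are not independent of one another.

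Other parts of the pathway were listed beside them. The differences of listed genes are of the combination from venetoclax unless another is named. Of the other inhibitory parts (subunits and partners of TSC, KICSTOR and GATOR, and inhibitors of the kinase), 10 of 11 were tested, and 7 were higher and 3 lower in the combination than in venetoclax (median 0.40, and 0.21 without venetoclax replicate 2). GRB10, an adaptor that is stabilised by mTORC1 and feeds back on receptor signalling, was at 35.9 and 36.6 CPM under venetoclax, 57.7 and 56.3 under CSA and 85.9 and 79.3 under both drugs, and the groups were well apart. Its difference from venetoclax was 1.19 ± 0.15 (adjusted p of 0.108 in edgeR and 8.21e-08 in DESeq2), and 1.21 without venetoclax replicate 2. GRB10 was the one DESeq2 call among the 10 tested genes of that list, against 2.45% of all genes. TBC1D7, the accessory TSC subunit, differed by 0.64 ± 0.22 and CASTOR2, of the arginine sensor family, by 0.85 ± 0.34, neither called by either tool with 6 libraries.

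Of the activating parts (mTORC1 subunits, RHEB, Rag GTPases, Ragulator, GATOR2 and folliculin partners), 21 of 22 were tested, with 14 higher and 7 lower than in venetoclax and a median of 0.08. Without venetoclax replicate 2 there were 10 higher and 11 lower, with a median of −0.0095. MLST8, a subunit of the kinase complex, was the one DESeq2 call of the 21 (0.86 ± 0.19, adjusted p of 0.0184), against 2.45% of all genes. LAMTOR2 (0.30 ± 0.26) and LAMTOR3 (−0.14 ± 0.42) of Ragulator were not called. Without that library LAMTOR2 was at 0.18 and LAMTOR3 at 0.36, the latter in the other direction.

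For AMPK and its kinase, which restrain mTORC1 when energy is low, 3 of 6 tested genes were higher and 3 lower, with PRKAA1 at −0.60 ± 0.40, PRKAB1 at 0.27 ± 0.22 and PRKAG2 at −0.26 ± 0.38. These values turned on venetoclax replicate 2, in which PRKAA1 was at 214 CPM against 82.9 to 108 in the other 5 libraries. Without it PRKAA1 was at 0.16, PRKAB1 at 0.056 and PRKAG2 at 0.35, and the median of the list went from −0.03 to 0.11, with 4 genes higher and 2 lower. Of 9 genes for mTORC1 substrates 7 were higher, including EIF4EBP1 (0.77 ± 0.26), ULK1 (0.51 ± 0.18) and TFE3 (0.49 ± 0.21). None of the 9 was called, where DESeq2 called 2.45% of all genes and edgeR 0%. Without that library 5 were higher and 4 lower, the median went from 0.21 to 0.12, and EIF4EBP1 was at 0.44 and TFE3 at 0.27.

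**Figure D4:**
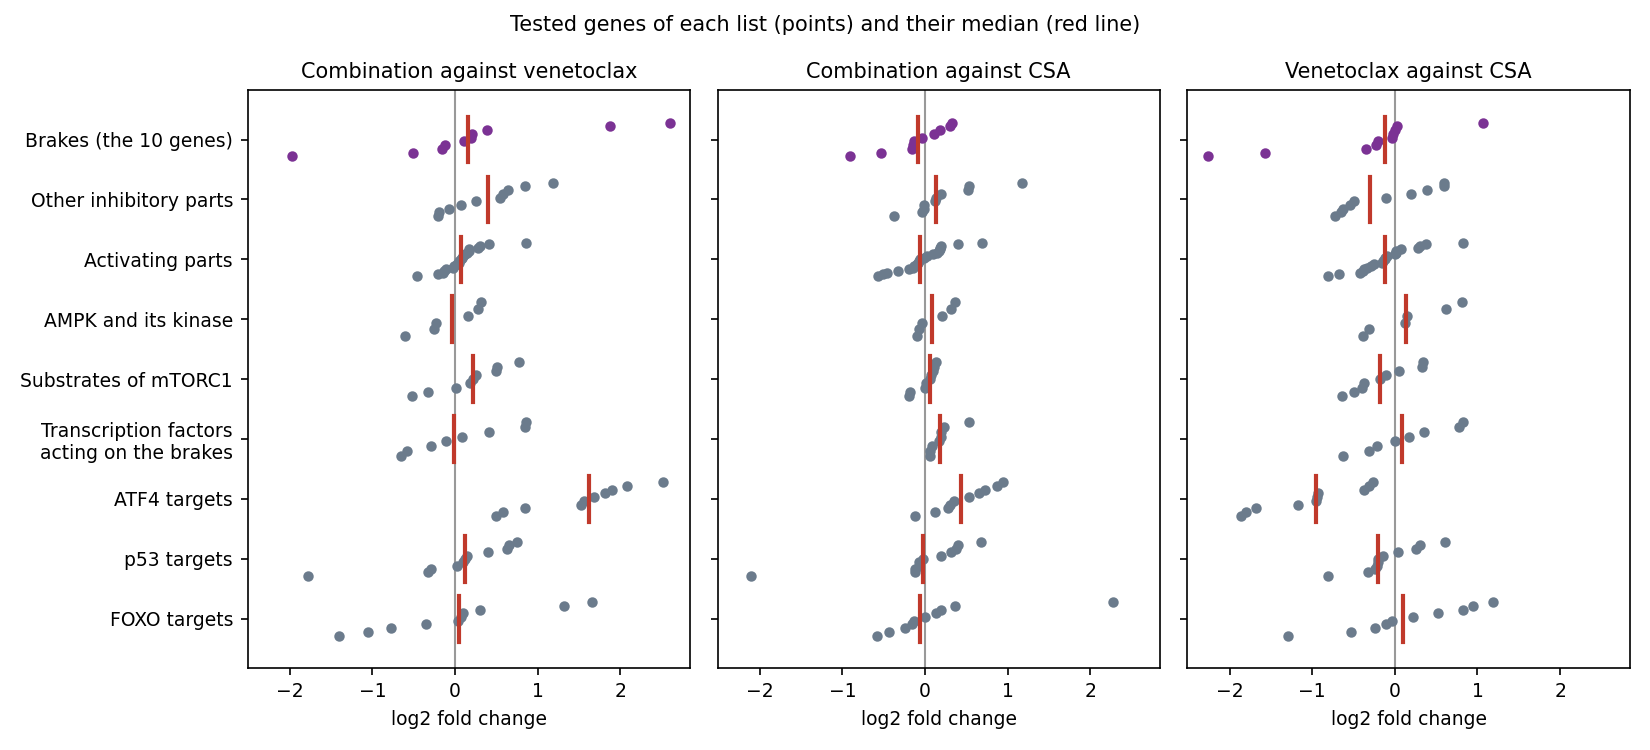
Log2 fold change of every tested gene of each list in the 3 comparisons (points), with the median of the list (red line). The ATF4 targets lie right of 0 for the combination against venetoclax (median 1.62) and left of it for venetoclax against CSA (median −0.95), while the 10 brakes spread to both sides.

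Among transcription factors known to act on the brakes, 8 of 9 were tested and 4 were higher and 4 lower than in venetoclax (median −0.02, and 0.15 without venetoclax replicate 2, with 5 higher and 3 lower). ATF4, the effector of the integrated stress response, was at 353 and 271 CPM under venetoclax, 480 and 483 under CSA and 563 and 568 under both drugs (0.86 ± 0.18; adjusted p of 0.228 in edgeR and 0.00673 in DESeq2). CEBPB differed by 0.84 ± 0.19 (DESeq2 adjusted p of 0.0209) and NFE2L2, the oxidative stress factor, by −0.66 ± 0.20, with no call. DESeq2 thus called 2 of the 8 factors, against 2.45% of all genes.

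The listed ATF4 targets, like SESN2 and DDIT4, had lower group means with venetoclax than in either other group. For ATF5 the venetoclax libraries, at 205 and 486 CPM, overlapped those under CSA (456 and 435) and under both drugs (457 and 514). All 10 targets were higher in the combination than in venetoclax (median 1.62, and 1.59 without venetoclax replicate 2). With all 6 libraries DESeq2 called 8 of them, against 2.45% of all genes, and edgeR called none, as among all genes. Against CSA 9 of 10, all but ATF3, were higher (median 0.44), and DESeq2 called 3, against 0.473% of all genes. All 10 were lower with venetoclax than with CSA (median −0.95), and DESeq2 called 7, against 0.496%. The list was chosen with earlier results of these data known. ASNS, which makes asparagine, was at 45.2 and 51.8 CPM under venetoclax, 89.9 and 95.02 under CSA and 178 and 161 under both drugs (1.81 ± 0.16, edgeR adjusted p of 0.0703). PSAT1, of serine synthesis, differed by 1.69 ± 0.15 and SLC7A11, the cystine transporter, by 1.89 ± 0.19. DESeq2 also called these 3 against CSA, at 0.88 ± 0.16, 0.73 ± 0.15 and 0.95 ± 0.18. There it called neither SESN2, DDIT4 nor the rest of the list. These 3 were named for the smallest p of the list, and the difference between the genes was not itself tested. CEBPB is on this list and on that of the factors.

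Of 11 tested p53 targets 8 were higher and 3 lower than in venetoclax (median 0.12), and 6 and 5 without venetoclax replicate 2 (median 0.061). MDM2, the ubiquitin ligase that degrades p53, was at 64.2 and 28.7 CPM under venetoclax, 58.8 and 57.9 under CSA and 12.5 and 14.6 under both drugs. The combination differed by −1.78 ± 0.39 from venetoclax and −2.10 ± 0.39 from CSA. DESeq2 called MDM2 alone of the 11 in each of these comparisons, against 2.45% and 0.473% of all genes. CDKN1A (0.65 ± 0.26, and 0.43 without venetoclax replicate 2) and BTG2 (0.63 ± 0.24) were not called. Of 10 FOXO targets 6 were higher and 4 lower (median 0.05), and 3 and 7 without venetoclax replicate 2 (median −0.11), with BCL6 at −1.40 ± 0.39 and CCNG2 at −0.77 ± 0.20. BCL2L11, which encodes the BCL2 antagonist BIM, was called by DESeq2 for the combination against CSA only, at 2.27 ± 0.53. That was 1 of the 10, against 0.473% of all genes.

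The genes most like each variable brake were sought by the root mean square difference of mean-centred log2 CPM over the 6 libraries. Nearest to SESN2 were ASS1 (0.14), FLRT1 (0.15) and KLHDC7B (0.17), where the median gene was at 0.88. ASS1, which makes the arginine precursor argininosuccinate, was at 103 and 60.1 CPM under venetoclax, 227 and 217 under CSA and 248 and 237 under both drugs, whereas KLHDC7B had a mean of only 0.48 CPM. Nearest to SESN3 were TGFBR3 (0.12), ZNF615 (0.16) and TET1 (0.17), with mean levels of 1.22, 0.35 and 3.48 CPM. Nearest to DDIT4 were PAPPA2 (0.23), CHD5 (0.25) and NLRP12 (0.29), all at a mean under 7 CPM. SESN2 ranked 33rd nearest to DDIT4 among 12689 genes and DDIT4 251st nearest to SESN2. The other 7 brakes varied too little for this measure, which asked for a 1.5-fold range of group means.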

How the data were processed

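RNA-seq counts from 6 libraries of MV4-11 cells were used, 2 per treatment, grouped by their titles. Per the labels' protocols, Trizol RNA was made into libraries with the KAPA RNA HyperPrep kit and read in pairs. The submitters' processing notes name STAR, RSEM, DESeq2 and build hg38, without versions or roles. As deposited, the table gives raw counts for each gene, in whole numbers. A further 2 columns could not be tied to a labelled sample and were not used. Of counts from 1 to 20, 64.8% to 66.7% were even, against 49.0% to 51.0% of counts of 100 or more, so low counts may carry more error than a count model assumes.

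Symbols were matched for 20148 of 20263 genes, and positions and lengths come from GENCODE 29 (GRCh38). Genes passing filterByExpr were scaled by TMM and tested two-sided with edgeR 4.0.16 (R 4.3.3; glmQLFit with robust estimates, then glmQLFTest) in one fit by group, with 3 residual degrees of freedom and Benjamini-Hochberg adjustment over all genes. SE is the fold change over the root of the F value. limma 3.58.1 (voom) and DESeq2 1.42.0 were alternatives, beside other scalings and filters, a replicate block and leaving out each library. Members and lists were chosen with earlier results of these data known, and the 3 genes named per list were those with the smallest p. The level of 1 marker gene is not reported here.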

Additional observations from a re-analysis of the deposited data

How the results depend on the processing

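SESN2, SESN3 and DDIT4 kept their direction in 18 of 18 alternatives in each comparison. Of the members' differences under alternatives, 493 kept direction and side of the threshold, 23 passed it only under the alternative and 24 changed direction. With all libraries, edgeR called 0 of 12690 genes in each comparison and no member; at an unadjusted p under 0.05 it had 1372, 462 and 609 (combination against venetoclax, combination against CSA, venetoclax against CSA). In that order DESeq2 called 311, 60 and 63 genes, and 3, 0 and 2 members; without venetoclax replicate 2 it called 490, 256 and 107 genes, and 3, 1 and 2 members. Without a filter on low counts edgeR called 15, 4 and 2 genes. For the combination against CSA, voom called 1, voom with quality weights 43, and a fit of only the 4 libraries 24. Leaving out 1 library at a time gave 0 to 3426, 0 to 24 and 0 to 4385 genes, and 0 to 4, 0 and 0 to 4 members, the highest without venetoclax replicate 1.

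Replicate numbers recur across groups, but with 2 numbers they were not taken as pairing (correlations of replicate differences 0.19, 0.25 and 0.16). The replicate block called 0 genes in each comparison with 6 libraries. The block without venetoclax replicate 2 called 229, 72 and 16 genes and 3, 0 and 1 members.

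The largest difference after a change of direction was −0.32, for TSC1 between the single agents with libraries scaled by size alone. For the combination against venetoclax, library size scaling gave 0.13 for NPRL3 and 0.12 for DEPDC5; NPRL2 was −0.12 with DESeq2 and −0.068 with the block, both without venetoclax replicate 2, and −0.11 to 0.62 leaving out single libraries. For the combination against CSA, TSC2 ranged from −0.12 to 0.041. For venetoclax against CSA, TSC1 was −0.32 by library size, −0.0051 without a filter, −0.0011 without mitochondrially encoded genes and −0.060 with DESeq2 without venetoclax replicate 2, and −0.11 to 0.12 leaving out single libraries. DEPDC5 was −0.30 by library size, −0.0065 with that DESeq2 fit, and −0.019 to 0.060. NPRL3 was 0.028 with that DESeq2 fit, 0.081 with the block without that library, and −0.12 to 0.052. DEPTOR was −0.19 to 0.13. The cause of these changes was not tested.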
